A study of Homo sapiens with 46 samples.

Results

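The genes described here encode the SUN and nesprin proteins of the LINC complex: SUN1, SUN2, SYNE1, SYNE2, SYNE3 and SYNE4. They were chosen by name, with no measured value in the rule but with earlier results of these data known. They are 6 of 62756 genes in the count table. Their RNA was followed in 46 libraries of DLD-1, an adherent human colorectal adenocarcinoma line, with 3 auxin times in each of 4 lines. The parental line (genotype WT) carries no tag. In the other lines an auxin-inducible degron sits at the N-terminal end of endogenous Lamin A/C (LA/C-AID, called LAC here), Lamin B1 (LB1-AID, LB1) or Lamin B2 (LB2-AID, LB2), so that auxin marks the tagged lamin for degradation. Auxin at 1 mM, with DMSO as its solvent, was on all 4 lines alike for 0, 16 or 96 h. The parental groups serve to pick out responses to auxin that need no tag. Of the 12 groups 10 held 4 replicates, and LB1 at 0 h and LB2 at 96 h held 3. A replicate was 1 well of a plate, so p-values measure the spread between wells. The labels do not say whether a tagged line is 1 clone, or whether wells at 0 h received DMSO. The tag therefore cannot be told apart from other differences between lines, nor auxin from its solvent. The degron acts on protein, and lamin protein was not analysed here.

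LINC complexes span both membranes of the nuclear envelope. SUN1 and SUN2 sit in the inner membrane, where they touch the lamina and chromatin, and in the space between the membranes they bind the KASH domain at the end of a nesprin. Nesprins sit in the outer membrane: nesprin-1 (SYNE1) and nesprin-2 (SYNE2) are giant proteins that bind actin in their long forms, nesprin-3 (SYNE3) binds plectin and through it intermediate filaments, and nesprin-4 (SYNE4) binds kinesin-1. In epithelial cells such complexes hold the nucleus in place and pass force from the cytoskeleton to the lamina, and lamins help to anchor the SUN proteins.

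SYNE3 and SYNE1 carried most of the changes reported below, so a promoter window of each is shown first. RefSeq windows on GRCh38.p14 run from 250 bases before to 50 bases after an annotated start, 5′ to 3′ on the gene's strand. Capitals mark GCGTG or its reverse complement CACGC, the core of the dioxin response element that the aryl hydrocarbon receptor is known to bind. Whether that receptor takes part in any change of these genes was not tested.
SYNE3: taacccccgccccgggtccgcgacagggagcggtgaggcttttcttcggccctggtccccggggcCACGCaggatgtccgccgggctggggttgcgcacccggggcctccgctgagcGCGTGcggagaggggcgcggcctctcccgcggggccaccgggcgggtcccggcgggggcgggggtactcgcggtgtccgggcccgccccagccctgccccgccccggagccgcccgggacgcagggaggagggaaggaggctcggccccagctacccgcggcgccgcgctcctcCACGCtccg
SYNE1: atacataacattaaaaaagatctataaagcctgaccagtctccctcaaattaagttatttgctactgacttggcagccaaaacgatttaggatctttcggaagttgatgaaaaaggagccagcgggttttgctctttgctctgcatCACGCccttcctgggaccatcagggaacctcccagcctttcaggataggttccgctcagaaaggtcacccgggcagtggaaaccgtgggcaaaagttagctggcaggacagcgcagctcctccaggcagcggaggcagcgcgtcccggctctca
The SYNE3 window (chr14:95516601-95516900, minus strand) begins its gene at base 95516650, which is also the edge of the gene in the count table, and it holds 3 matches. The SYNE1 window (chr6:152637313-152637612, minus strand) holds 1 match. Of 35116 RefSeq windows of the same length, 36.5% hold the motif on either strand, so a match is common, and it is a description and not a site. The TEAD motif CATTCC (or GGAATG) has 0 matches in either window and is in 14.0% of all windows. Each window shown is that of the annotated start nearest to the gene's edge in the count table. In the GENCODE 29 annotation the same edge of SYNE3 lies at base 95475836 instead. Which start these cells use was not measured. RefSeq lists 1 more window for SYNE3, with 0 matches of GCGTG, and 3 more for SYNE1, with 1, 0 and 0, one of which has 1 TEAD match. SUN2 has a window with 3 matches of GCGTG as well, and SYNE2 and SYNE4 each have a window with 1 match. The share of all windows with 3 matches was not computed.

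All 6 genes are protein-coding, and positions are those of the count table on GRCh38. SUN1 (ENSG00000164828.18) lies on chromosome 7 from 816615 to 896435 on the plus strand. SUN2 (ENSG00000100242.16) lies on chromosome 22 from 38733290 to 38794143 on the minus strand. SYNE1 (ENSG00000131018.25) lies on chromosome 6 from 152121687 to 152637801 on the minus strand. SYNE2 (ENSG00000054654.20) and SYNE3 (ENSG00000176438.13) are both on chromosome 14, from 63761899 to 64226433 on the plus strand and from 95407266 to 95516650 on the minus strand. SYNE4 (ENSG00000181392.17) lies on chromosome 19 from 36003307 to 36008813 on the minus strand. Their merged exons add up to 47.5 kb in SYNE1, 32.4 kb in SYNE2, 18.2 kb in SYNE3, 11.8 kb in SUN1, 8.35 kb in SUN2 and 2.55 kb in SYNE4. Reads of some members may have been assigned to a neighbour or taken from one, and how the counting treated strand is not given in the sources used here: SUN1 shares 1842 exonic bases with GET4 on the same strand, SUN2 shares 1135 with GTPBP1 on the opposite strand and 76 with DNAL4 on the same strand, and SYNE1 shares 303 with the antisense gene SYNE1-AS1. Unnamed antisense transcripts share 79 bases with SUN1 and from 236 to 450 with SUN2. SYNE4 shares 54 with an unnamed transcript of its own strand, and SYNE2 and SYNE3 share none with another gene.

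Library totals ran from 479446 to 37309421 counts with a median of 11533218. Of the 6 libraries under 5000000 counts, 5 were at 0 h, so depth differs between the times that are compared. Levels are in CPM, counts per 1000000 of the library size after TMM scaling. In the least deep library, replicate 3 of LB2 at 16 h, a gene with 0 counts may have had up to 3, or 6.26 CPM. All 7 epithelial markers passed the low-count filter, with summed levels from 4976 to 11547 CPM, while 7 mesenchymal, blood and endothelial markers summed to between 0 and 7.41 CPM in a library, with COL1A2 and HBB at 0 counts in all 46. Of these other markers 3 passed the filter too, namely CDH2, COL1A1 and PECAM1. KRT8 was the highest epithelial marker (median 3979 CPM). The epithelial marker VIL1 was low, with a median of 1.26 CPM (0 to 4.17), beside 1.37 for CDH2 and 1.26 for COL1A1. In the LAC comparisons the log2 changes of 8547 well-expressed genes ran with GC content (Spearman rho -0.71 at 16 h and -0.66 at 96 h, across genes, which are not independent replicates), against 0.01 and 0.02 in the parental line. The other tagged lines showed such a trend too, with rho -0.48 at 16 h and -0.21 at 96 h in LB2, and 0.23 and -0.17 in LB1. Changes are therefore also given with each library's trend on GC content and gene length removed (called the trend removed in what follows) wherever that changes a call of a member or moves a called value by over 1.5 times. How far depth and this trend take part in the results was not tested beyond these refits. The GC content of SUN2, at 60.8%, is above that of 89.4% of tested genes, and SUN2 moved most of the members when the trend was removed from the LAC changes at 16 and 96 h.

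Per kilobase of merged exons, both SUN genes stood above every nesprin in 46 of 46 libraries. The median level was 9.65 CPM per kb for SUN1 and 7.21 for SUN2, and SUN1 was the higher in 39 libraries. Among nesprins SYNE2 came first at a median of 1.38 CPM per kb, and it was the highest nesprin in 45 of 46 libraries. SYNE4 followed at 0.712, SYNE3 at 0.293 and SYNE1 at 0.114 CPM per kb, with SYNE4 above SYNE1 in 46 of 46. Merged exons count every annotated isoform, so a gene that is mostly transcribed as a short form, as long nesprin genes can be, is understated by this measure. In bulk RNA, a lower level in every cell and a smaller share of cells with the transcript cannot be told apart.

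**Figure D1:**
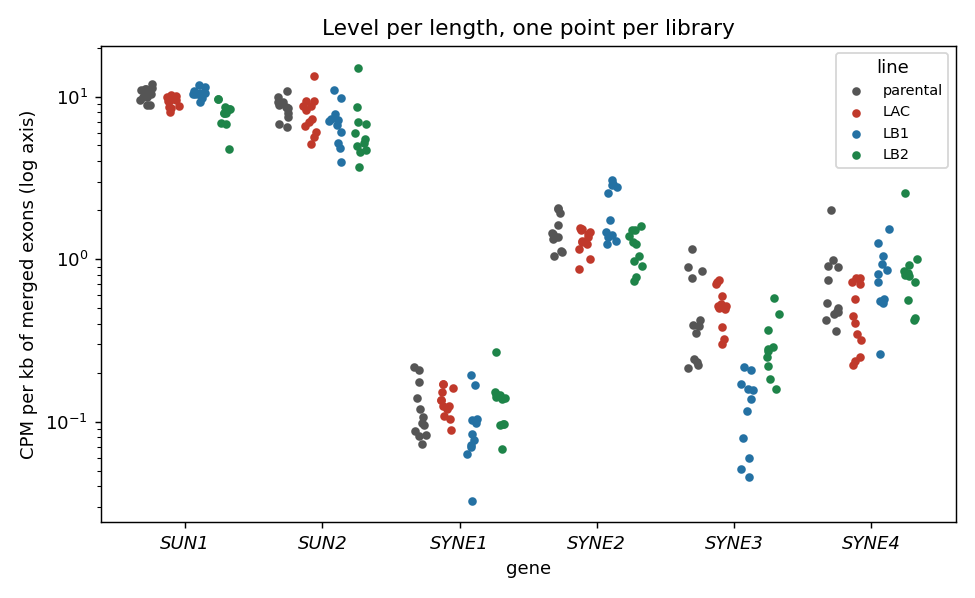
Level of each gene in CPM per kb of merged exons on a log axis, with 1 point per library coloured by line; the SYNE3 value of 0 in replicate 3 of LB2 at 16 h cannot be drawn on this axis. SUN1 (median 9.65) and SUN2 (7.21) lie above all nesprins in every library, and SYNE3 spreads most.

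The members differed in how far they moved between groups. The ratio of the highest to the lowest group mean was 1.56 for SUN1, 2.09 for SUN2, 2.76 for SYNE2, 3.07 for SYNE4, 3.12 for SYNE1 and 15.5 for SYNE3. The lowest SUN1 mean, that of LB2 at 16 h, includes the least deep library, with 26 SUN1 counts. Over the 12 group means of log2 CPM, SYNE1 ran most closely with SYNE3 (Pearson r 0.64) and SUN2 with SYNE3 (r 0.61), while SUN2 and SYNE4 ran in opposite directions (r -0.57). These correlations describe 12 means that share lines and depth, and they carry no test.

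**Figure D2:**
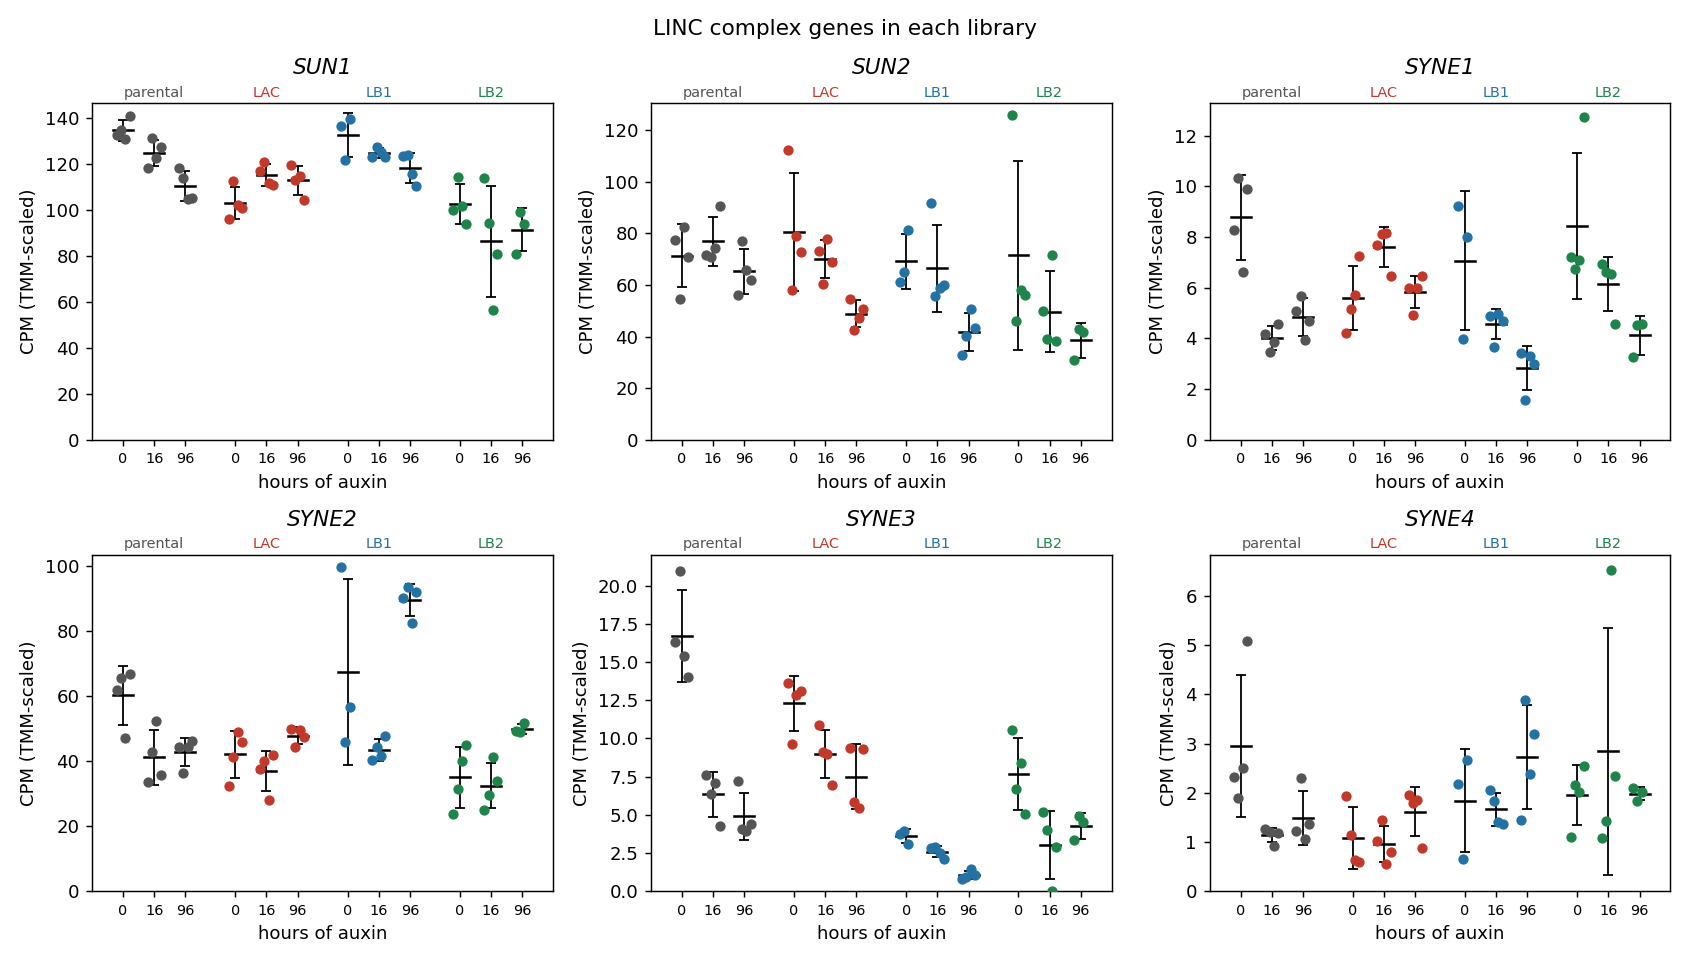
TMM-scaled CPM of each gene in each of the 46 libraries (points), by line and hours of auxin, with group mean and SD (bars). SYNE3 falls from 16.7 to 4.90 CPM in the parental line and starts at 3.63 in LB1, while SUN1 keeps group means between 86.3 and 135.

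Next, 16 h and 96 h of auxin were each set against 0 h within a line. Of 32 tests of nesprins 11 passed, all lower: SYNE1 and SYNE3 each fell in 4 of 8 comparisons, SYNE2 in 2 and SYNE4 in 1. Of 16 tests of SUN genes 2 passed, both of SUN2 and both lower. Among the 21 nesprin tests that did not pass, 7 estimates were above 0, up to 0.74 for SYNE4 in LAC at 96 h. In all, 13 of 48 tests passed the threshold (edgeR adjusted p under 0.05), all 13 lower, and the 16 h and 96 h comparisons of a line share its 0 h libraries. In the parental line at 16 h 4 of 6 members passed, where 9.01% of all 21484 tested genes passed and 4.78% were called lower. At 96 h it was 2 of 6 against 7.78% (3.84% lower). LAC had 0 of 6 at 16 h against 1.78% of all genes, and also 0 at an unadjusted p under 0.05, with 0 by DESeq2 and 1 by limma voom with sample weights. At 96 h LAC had 2 of 6 against 15.4% (8.64% lower), the highest background of the 8 comparisons. LB1 had 1 of 6 at 16 h against 1.5% (0.517% lower) and 2 of 6 at 96 h against 3.17% (2.12% lower). LB2 had 0 of 6 at 16 h against 1.81%, with 2 at an unadjusted p under 0.05, 1 by DESeq2 and 2 by voom, and 2 of 6 at 96 h against 3.55% (1.6% lower). Removing the trend left 4 members called in the parental line at 16 h, against 14.0% of all genes, and 2 at 96 h, against 13.8%. For LAC the counts were then 0 (1.43%) at 16 h and 1 (13.8%) at 96 h. For LB1 they were 1 (4.79%) and 3 (7.35%), and for LB2 2 (3.44%) and 4 (7.75%). These 17 calls, all lower, included SUN1 in the parental line and in LB2 at 96 h. They also included SUN2 in LB1 at 96 h and in LB2 at both times, but not SUN2 in LAC. The smaller share of SUN genes among the calls therefore depends on the fit. Groups said below not to overlap are a description of the libraries. The share of all tested genes whose groups did not overlap was not computed for any comparison.

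The median change of the members was -0.85 in the parental line at 16 h and -0.67 at 96 h, where the median of all genes was -0.04 and -0.03. For LAC at 96 h the members' median was 0.08, for LB1 -0.45 and for LB2 -0.47, beside medians of all genes of 0.03 in LAC, 0.04 in LB1 and close to 0 in LB2.

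**Figure D3:**
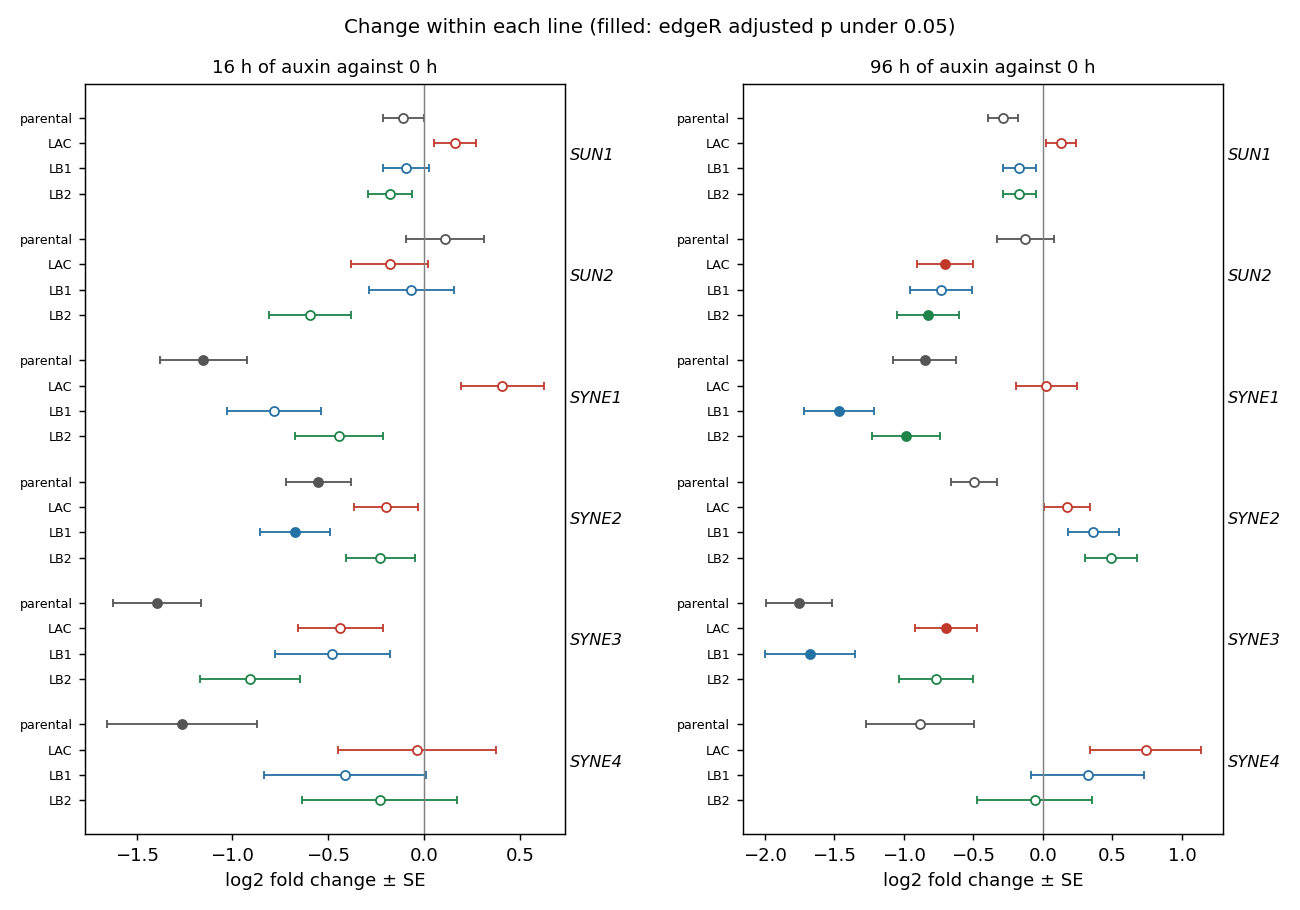
Log2 fold change with standard error of each gene in each line at 16 h (left) and 96 h (right) of auxin against 0 h; filled points have an edgeR adjusted p under 0.05. All filled points lie below 0, from -0.55 for SYNE2 in the parental line at 16 h to -1.75 for SYNE3 at 96 h.

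SUN1, the more abundant of the inner membrane partners per kb, varied least. Its mean in the parental line went from 135 ± 4.51 CPM before auxin to 125 ± 5.72 at 16 h and 110.4 ± 6.65 at 96 h (SD, n = 4 in each group). The libraries at 0 h read 132, 134, 131 and 141 CPM and those at 96 h 118, 114, 105 and 105 CPM. The groups did not overlap, but the change of -0.29 ± 0.11 (log2, standard error) missed the threshold (edgeR adjusted p 0.0941), and it passed with the trend removed (-0.32, edgeR adjusted p 0.00296). Across the other 7 own-line comparisons the change lay between -0.18 (LB2, 16 h) and 0.16 (LAC, 16 h). For the 96 h changes the 95% intervals were -0.08 to 0.34 in LAC, -0.40 to 0.06 in LB1 and -0.40 to 0.06 in LB2. Of 8 tests, 1 had an unadjusted p under 0.05, and DESeq2 and voom each called 1. The LB2 change at 96 h passed with the trend removed (-0.34, edgeR adjusted p 0.00637). Ordered by mean, SUN1 ran from 86.3 CPM in LB2 at 16 h to 135 in the parental line at 0 h, and all 11 neighbouring pairs in that order overlapped in range. The lowest of these groups holds the least deep library, at 56.6 CPM on 26 counts, beside 114, 94.3 and 80.6 CPM.

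SUN2 was lower at 96 h in each tagged line, and 2 of these 3 changes passed the test. In LAC the 4 libraries read 112, 58.0, 78.9 and 72.6 CPM at 0 h and 54.7, 42.4, 47.3 and 50.8 at 96 h. In LB1 they read 61.1, 65.1 and 81.3 CPM at 0 h and 32.9, 40.4, 50.6 and 43.2 at 96 h, and in LB2 126, 46.0, 58.0 and 56.3 at 0 h and 30.8, 43.1 and 41.7 at 96 h. In all 3 lines the highest library at 96 h was below the lowest at 0 h, and how often this held over all genes was not computed. For LAC the change was -0.70 ± 0.20 (edgeR adjusted p 0.0132), for LB2 -0.83 ± 0.22 (edgeR adjusted p 0.0269) and for LB1 -0.73 ± 0.22 (edgeR adjusted p 0.0539). In the parental line SUN2 read 77.6, 54.6, 82.5 and 70.8 CPM at 0 h and 56.2, 76.9, 65.8 and 62.1 at 96 h, groups that overlap, with a change of -0.13 ± 0.20 (95% interval -0.52 to 0.27). The tests of the difference between a tagged line's change and the parental one did not pass (edgeR adjusted p 0.213 in LAC, 0.300 in LB1 and 0.322 in LB2).

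How firm the SUN2 changes are differs by line. With the trend removed the LAC change shrank and was not called (-0.31, edgeR adjusted p 0.0600), the LB1 change was called (-0.65, edgeR adjusted p 0.000339) and the LB2 change stayed called (-0.73, edgeR adjusted p 0.000122). The LAC call also ended without replicate 1 of LAC at 0 h (-0.50, adjusted p 0.0992), the library at 112 CPM, without replicate 2 of LAC at 96 h (-0.64, adjusted p 0.0565), and in edgeR fitted to those groups alone (-0.72, adjusted p 0.0519). The LB2 call ended without replicate 1 of LB2 at 0 h (-0.46, adjusted p 0.205), which had 227 SUN2 counts. It also ended without replicate 1 (-0.67, adjusted p 0.166), replicate 2 (-0.89, adjusted p 0.0561) or replicate 3 of LB2 at 96 h (-0.88, adjusted p 0.0746), without libraries under 5000000 counts (-0.40, adjusted p 0.243) and in the fit of those groups alone (-0.86, adjusted p 0.322). Voom kept the LB2 call at a smaller change (-0.47, voom adjusted p 0.0295). At 16 h edgeR called SUN2 in none of the lines, with 1 of the 4 tests at an unadjusted p under 0.05, 0 called by DESeq2 and 1, in LB2, by voom. In LB2 its change was -0.60 ± 0.21 (edgeR adjusted p 0.142), called with the trend removed (-0.45, edgeR adjusted p 0.0301). The ratio of SUN1 to SUN2 per kb needs no scaling between libraries, but it keeps the GC trend: GC content is 49.3% in SUN1 and 60.8% in SUN2. The ratio was not computed with the trend removed. In that refit the LAC changes at 96 h were 0.12 for SUN1 and -0.31 for SUN2. The ratio averaged 1.37 ± 0.188 in LB1 at 0 h (SD, n = 3) and 2.05 ± 0.453 at 96 h (SD, n = 4), against 1.36 ± 0.275 and 1.21 ± 0.192 in the parental line (SD, n = 4 each). In LAC it went from 0.964 ± 0.314 without auxin to 1.64 ± 0.190 by 96 h (SD, n = 4 in each group). The groups at 0 and 96 h did not overlap in LAC or LB1, and the difference was not tested. In LB2 it was 1.18 ± 0.489 (SD, n = 4) and then 1.69 ± 0.145 (SD, n = 3).

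SYNE1, the giant actin-binding nesprin, fell within 16 h of auxin in the untagged line. The parental libraries read 8.29, 10.3, 6.64 and 9.91 CPM at 0 h, 4.19, 3.48, 3.86 and 4.56 at 16 h and 5.07, 5.68, 3.92 and 4.69 at 96 h. Neither later group overlapped the first. The change was -1.15 ± 0.23 at 16 h (edgeR adjusted p 0.00102) and -0.85 ± 0.22 at 96 h (edgeR adjusted p 0.0125). Every alternative kept the call at 16 h. The call at 96 h ended with the trend removed (-0.59, edgeR adjusted p 0.0697), without the low-count filter (-0.78, adjusted p 0.0780) and without replicate 2 of the parental line at 0 h (-0.69, adjusted p 0.0736).

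In LB1 SYNE1 reached its lowest level. The libraries read 9.22, 3.98 and 8.01 CPM at 0 h, 4.90, 3.68, 4.95 and 4.70 at 16 h and 3.42, 1.56, 3.31 and 2.99 at 96 h, and the library at 3.98 rests on 6 counts. All 4 libraries at 96 h were below all 3 at 0 h. The change was -0.78 ± 0.25 at 16 h, which did not pass (edgeR adjusted p 0.0772), and -1.46 ± 0.25 at 96 h, a 2.76-fold lower level (edgeR adjusted p 6.49e-05) that every alternative kept. In LB2 the libraries read 7.21, 6.74, 7.08 and 12.7 CPM at 0 h, 6.93, 6.60, 6.53 and 4.58 at 16 h and 3.25, 4.54 and 4.57 at 96 h. The value of 7.21 rests on 13 counts, and that of 6.53, in the least deep library, on 3. The 0 h and 96 h groups did not overlap, and the change at 96 h was -0.99 ± 0.24 (edgeR adjusted p 0.0126). This LB2 call ended without replicate 4 at 0 h (-0.71, adjusted p 0.116), without replicate 1 at 96 h (-0.85, adjusted p 0.0927), without the low-count filter (-0.95, adjusted p 0.0647), without libraries under 5000000 counts (-0.71, adjusted p 0.0892) and in the fit of the 2 groups alone (adjusted p 0.226).

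In LAC SYNE1 was not called lower at either time. Its libraries read 4.21, 5.18, 5.72 and 7.24 CPM at 0 h, 7.70, 8.10, 8.16 and 6.45 at 16 h and 5.98, 4.92, 5.97 and 6.46 at 96 h, and each later group overlapped the first. The change was 0.41 ± 0.22 at 16 h (95% interval -0.02 to 0.83) and 0.02 ± 0.22 at 96 h (95% interval -0.40 to 0.45), with edgeR adjusted p 0.281 and 0.963. Across the 12 groups the SYNE1 means ran from 2.82 CPM in LB1 at 96 h to 8.79 in the parental line at 0 h. Of the 11 neighbouring pairs in that order 10 overlapped, the exception being LB1 at 96 h and the next group, the parental line at 16 h at 4.02 CPM.

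SYNE2, the other actin-binding giant, fell at 16 h in the parental line and in LB1. The parental libraries read 62.0, 65.5, 47.0 and 66.7 CPM at 0 h, 33.7, 42.9, 52.4 and 35.9 at 16 h and 44.3, 36.4, 44.2 and 46.3 at 96 h. Replicate 3 at 0 h and replicate 3 at 16 h overlapped the other group, and the groups at 0 and 96 h did not overlap. The change was -0.55 ± 0.17 at 16 h (edgeR adjusted p 0.0319) and -0.50 ± 0.17 at 96 h (edgeR adjusted p 0.0587), the latter not called. The 16 h call ended without the low-count filter (-0.46, adjusted p 0.112) and without any 1 of 6 libraries, namely replicates 1, 2 and 4 of the parental line at 0 h and the same 3 replicates at 16 h (changes from -0.55 to -0.45, edgeR adjusted p from 0.0758 to 0.121).

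In LB1 SYNE2 was low at 16 h and high at 96 h. The libraries read 99.7, 45.8 and 56.6 CPM at 0 h, 40.3, 44.4, 41.6 and 47.7 at 16 h and 90.2, 93.6, 82.6 and 92.1 at 96 h. Every library at 96 h was above every library at 16 h, a pair of groups that was not tested, while the wide 0 h group overlapped both. Against 0 h the change was -0.68 ± 0.18 at 16 h (edgeR adjusted p 0.0419) and 0.36 ± 0.18 at 96 h (edgeR adjusted p 0.339). The 16 h call rests on replicate 1 of LB1 at 0 h: without it the change was -0.25, adjusted p 0.618. It also ended without replicate 1 (-0.62, adjusted p 0.125), replicate 2 (-0.67, adjusted p 0.103) or replicate 3 of LB1 at 16 h (-0.62, adjusted p 0.113), without the low-count filter (-0.66, adjusted p 0.0537) and in the fit of the 2 groups alone (-0.72, adjusted p 0.0737). In LB2 the libraries read 23.8, 31.4, 40.0 and 44.8 CPM at 0 h, 25.1, 29.5, 41.3 and 33.8 at 16 h and 49.2, 49.1 and 51.7 at 96 h. Those at 96 h lay above all others of the line, and the change from 0 h was 0.49 ± 0.18 (edgeR adjusted p 0.140). In LAC the group means were 42.1 ± 7.24, 37.0 ± 6.17 and 47.9 ± 2.61 CPM (SD, n = 4 each), with edgeR adjusted p 0.529 at 16 h and 0.543 at 96 h. From LB2 at 16 h (32.4 CPM) to LB1 at 96 h (89.6 CPM), all 11 neighbouring groups overlapped.

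SYNE3, the plectin-binding nesprin, moved most. In the parental line its libraries read 16.3, 21.0, 15.4 and 14.0 CPM at 0 h, 7.64, 6.40, 7.10 and 4.27 at 16 h and 7.19, 4.09, 3.92 and 4.41 at 96 h. The highest library with auxin, at 7.64, was well below the lowest without, at 14.0. The change was -1.40 ± 0.23 at 16 h (edgeR adjusted p 0.000114) and -1.75 ± 0.24 at 96 h, a 3.37-fold lower level (edgeR adjusted p 1.78e-06). Both calls held in each of 18 alternatives.

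In LB1 SYNE3 was low from the start and fell further. The libraries read 3.77, 3.98 and 3.13 CPM at 0 h, 2.85, 2.91, 2.52 and 2.12 at 16 h and 0.836, 0.934, 1.45 and 1.10 at 96 h, with counts from 6 to 76 at 0 h and from 11 to 28 at 96 h. The 3 groups did not overlap one another. The change was -0.48 ± 0.30 at 16 h (edgeR adjusted p 0.460) and -1.68 ± 0.33 at 96 h (edgeR adjusted p 0.000533), and all 17 alternatives kept the latter.

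In LAC SYNE3 fell by 96 h. Its libraries read 13.6, 9.65, 12.9 and 13.1 CPM at 0 h, 10.9, 9.14, 8.96 and 6.99 at 16 h and 9.39, 5.87, 5.46 and 9.32 at 96 h. The groups at 0 and 96 h did not overlap, although 9.65 and 9.39 nearly touch, and the change was -0.44 ± 0.22 at 16 h (edgeR adjusted p 0.265) and -0.70 ± 0.22 at 96 h (edgeR adjusted p 0.0280). The 96 h call ended in 8 of 18 alternatives: library size only (-0.58, adjusted p 0.0568), no low-count filter (-0.62, adjusted p 0.0980), the fit of the 2 groups alone (-0.70, adjusted p 0.0789), and without replicate 1, 3 or 4 of LAC at 0 h or replicate 2 or 3 at 96 h (changes from -0.67 to -0.57, edgeR adjusted p from 0.0631 to 0.125). In LB2 the libraries read 10.5, 6.68, 8.37 and 5.10 CPM at 0 h, 5.22, 3.99, 0 and 2.90 at 16 h and 3.35, 4.96 and 4.57 at 96 h. The 0 is a count of 0 in the least deep library, which allows up to 6.26 CPM, and the 96 h group lay wholly below the 0 h group. Neither LB2 change passed (-0.91 ± 0.26 at 16 h, edgeR adjusted p 0.0528; -0.77 ± 0.27 at 96 h, edgeR adjusted p 0.104), and both did with the trend removed (-0.95, edgeR adjusted p 0.0134, and -0.96, edgeR adjusted p 0.00771).

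In the order of SYNE3 means, LB1 at 96 h was lowest at 1.08 CPM and the parental line at 0 h highest at 16.7. These 2 groups did not overlap their neighbours, LB1 at 16 h and LAC at 0 h, and the other 9 neighbouring pairs did overlap.

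SYNE4, the kinesin-binding nesprin, had between 1 and 50 counts in a library, so its values are the least precise. The parental libraries read 2.32, 1.90, 2.51 and 5.07 CPM at 0 h, 1.27, 1.20, 0.927 and 1.18 at 16 h and 1.23, 2.29, 1.07 and 1.38 at 96 h. All libraries at 16 h were below all at 0 h. The change at 16 h was -1.26 ± 0.39 (edgeR adjusted p 0.0356), and the change of -0.89 ± 0.39 at 96 h did not pass (edgeR adjusted p 0.153). The 16 h call ended without the low-count filter (-1.15, adjusted p 0.126), without libraries under 5000000 counts (-0.89, adjusted p 0.112) and without any 1 of 7 of the 8 libraries, the exception being replicate 2 at 0 h (changes from -1.32 to -0.92, edgeR adjusted p from 0.0526 to 0.178). Among those single libraries, the smallest change came without replicate 4 at 0 h (-0.92, adjusted p 0.178). In the tagged lines the SYNE4 change lay between -0.41 (LB1, 16 h) and 0.74 (LAC, 96 h), with standard errors from 0.40 to 0.42. EdgeR called none of these 6, with 0 at an unadjusted p under 0.05, and voom called the LAC change at 96 h as higher. All 11 neighbouring groups overlapped, from LAC at 16 h (0.962 CPM) to the parental line at 0 h (2.95 CPM).

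Before auxin, the tagged lines already differed from the parental line: 8 of 18 tests passed, all 8 lower. LAC had 4 of 6 members called, where 15.8% of all tested genes were (7.08% lower), LB1 had 1 of 6 against 4.05% (2.43% lower), and LB2 had 3 of 6 against 8.21% (4.3% lower). After the trend was removed, 2 members were called for LAC (20.2% of all genes), 1 for LB1 (6.86%) and 2 for LB2 (13.0%). The difference of LAC from the parental line ran with GC content across genes (rho 0.49), with rho -0.22 for LB1 and -0.01 for LB2. The 3 comparisons share the parental libraries at 0 h. SYNE3 differed most. Against the parental libraries at 14.0 to 21.0 CPM, those of LB1 (3.77, 3.98 and 3.13 CPM) and of LB2 (10.5, 6.68, 8.37 and 5.10 CPM) all lay lower. The difference was -2.25 ± 0.28 in LB1, a 4.75-fold lower level (edgeR adjusted p 1.27e-07), and -1.18 ± 0.24 in LB2 (edgeR adjusted p 0.000728). Both calls held in every alternative. In LAC it was -0.47 ± 0.23 (edgeR adjusted p 0.152).

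SUN1 was lower in LAC, at 95.8, 112, 102 and 101 CPM, and in LB2, at 99.8, 114, 102 and 93.8 CPM, than in the parental line, whose libraries read 132, 134, 131 and 141 CPM. Neither group overlapped the parental one. The differences were nearly equal, at -0.39 ± 0.11 (edgeR adjusted p 0.0109) and -0.39 ± 0.11 (edgeR adjusted p 0.0178). In LB1 SUN1 read 136, 121 and 139 CPM, with a difference of -0.02 ± 0.12 (95% interval -0.25 to 0.22). The LAC call ended without the low-count filter (-0.34, adjusted p 0.271), without replicate 2 of the parental line (-0.34, adjusted p 0.0607) and without replicate 4 of LAC (-0.34, adjusted p 0.0602). The LB2 call ended without replicate 2 (-0.37, adjusted p 0.0700) or 4 of the parental line (-0.37, adjusted p 0.0546), without replicate 4 of LB2 (-0.34, adjusted p 0.0924), with the trend removed (-0.21, adjusted p 0.0784), without the low-count filter (-0.35, adjusted p 0.355), without libraries under 5000000 counts (-0.29, adjusted p 0.110) and in the fit of the 2 groups alone (-0.37, adjusted p 0.126). SUN2 was called in none of the 3 lines at 0 h by edgeR, DESeq2 or voom, and in none at an unadjusted p under 0.05, with 95% intervals of -0.24 to 0.56 in LAC, -0.47 to 0.40 in LB1 and -0.46 to 0.35 in LB2.

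SYNE2 was lower at 0 h in LB2, at 23.8, 31.4, 40.0 and 44.8 CPM against 62.0, 65.5, 47.0 and 66.7 in the parental line. The ranges did not overlap, with 44.8 against 47.0 as the nearest values. The difference was -0.76 ± 0.17 (edgeR adjusted p 0.00287), and in the fit of the 2 groups alone it was -0.74, adjusted p 0.0647. In LAC SYNE2 read 32.4, 41.3, 48.9 and 46.0 CPM, a difference of -0.51 ± 0.17 (edgeR adjusted p 0.0338), with ranges that overlapped. That call ended in 12 of 18 alternatives, among them the trend removed (-0.23, adjusted p 0.261), voom (-0.38, adjusted p 0.0591), the fit of the 2 groups alone (-0.56, adjusted p 0.0604), no low-count filter (-0.46, adjusted p 0.0896) and no libraries under 5000000 counts (-0.36, adjusted p 0.129). Leaving out replicate 1, 2 or 4 of either group ended it too (changes from -0.51 to -0.39, edgeR adjusted p from 0.0668 to 0.149).

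SYNE1 in LAC at 0 h stood at 5.59 CPM against 8.79, with replicate 4 of LAC (7.24) above replicate 3 of the parental line (6.64). The difference was -0.62 ± 0.22 (edgeR adjusted p 0.0491), the closest call to the threshold. It too ended in 12 of 18 alternatives, with the trend removed (-0.34, adjusted p 0.314), with voom (-0.42, adjusted p 0.140), in the fit of the 2 groups alone (-0.67, adjusted p 0.0931), without the low-count filter (-0.58, adjusted p 0.216), without libraries under 5000000 counts (-0.49, adjusted p 0.145), and without replicate 1, 2 or 4 of the parental line or replicate 1, 2 or 3 of LAC (changes from -0.62 to -0.47, edgeR adjusted p from 0.0825 to 0.219). SYNE4 in LAC read 1.94, 1.15, 0.635 and 0.603 CPM, from 4 to 31 counts, and only replicate 1 reached the parental range. Its difference of -1.51 ± 0.41 passed (edgeR adjusted p 0.00883). The call ended without replicate 4 of the parental line (-1.17, adjusted p 0.0631), without replicate 4 of LAC (-1.25, adjusted p 0.0540) and in the fit of the 2 groups alone (-1.56, adjusted p 0.0626).

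Because members were called lower with auxin in the parental line too, each tagged line's change was compared with the parental change at the same time. Of 36 such tests 2 passed, both in LAC and both with a higher change than in the parental line. At 16 h LAC had 1 of 6 members called where 0.116% of all tested genes were, and at 96 h 1 of 6 against 7.4% (0.0745% and 3.1% called higher). LB1 had 0 of 6 at 16 h against 0.0279%, with 1 at an unadjusted p under 0.05 and 0 by DESeq2 and voom, and 0 of 6 at 96 h against 1.04%, with 3 unadjusted and 1 each by DESeq2 and voom. LB2 had 0 of 6 at 16 h against 0.00465%, with 2 unadjusted and 0 by either tool, and 0 of 6 at 96 h against 0.368%, with 3 unadjusted and 1 each by DESeq2 and voom. Removing the trend gave 1 call at 16 h (against 0.577% of all genes) and 3 at 96 h (8.35%) for LAC. For LB1 it gave 0 (0.2%) and 0 (4.19%), and for LB2 0 (0.0326%) and 0 (1.77%). All of these differences share the parental libraries, so they are not independent of one another. The parental libraries at 0 h also enter the parental changes and the differences at 0 h, so calls of these kinds are not independent either. By mean, the parental line at 0 h was the highest of the 12 groups for SUN1, SYNE1, SYNE3 and SYNE4.

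The call at 16 h was SYNE1, whose mean went from 8.79 to 4.02 CPM in the parental line and from 5.59 to 7.60 in LAC. The difference of the 2 changes was 1.56 ± 0.31 (edgeR adjusted p 0.0136). It missed the threshold without replicate 2 of the parental line at 0 h (1.41, adjusted p 0.0691) or at 16 h (1.45, adjusted p 0.0766) and without replicate 2 of LAC at 16 h (1.49, adjusted p 0.0547). At 96 h the difference was 0.87 ± 0.31 (edgeR adjusted p 0.0726). The call at 96 h was SYNE3, whose mean went from 16.7 to 4.90 CPM in the parental line and from 12.3 to 7.51 in LAC, a difference of 1.06 ± 0.33 (edgeR adjusted p 0.0368). It ended without the low-count filter (1.07, adjusted p 0.0519) and without any 1 of 8 libraries: replicate 1 or 2 at 0 h and replicate 2, 3 or 4 at 96 h of the parental line, replicate 2 of LAC at 0 h, and replicate 1 or 4 of LAC at 96 h (differences from 0.88 to 1.05, edgeR adjusted p from 0.0533 to 0.107). For LB1 the SYNE3 change at 96 h differed from the parental one by 0.08 ± 0.40, with a 95% interval of -0.71 to 0.87, and for LB2 by 0.98 ± 0.36, with an interval of 0.28 to 1.68, a difference that did not pass after adjustment (edgeR adjusted p 0.210).

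SYNE2 came close to the threshold at 96 h. Its change exceeded the parental one by 0.67 ± 0.24 in LAC (edgeR adjusted p 0.0715), by 0.86 ± 0.25 in LB1 (edgeR adjusted p 0.0691) and by 0.98 ± 0.25 in LB2 (edgeR adjusted p 0.0574). All 3 were positive, and they share the parental libraries. DESeq2 and scaling by library size called all 3, voom those in LB1 and LB2, and the compared groups alone those in LAC and LB1. RLE scaling called only that in LB1. The replicate block, no low-count filter and no libraries under 5000000 counts each called only that in LB2. Removing the trend made the 3 SYNE2 differences smaller, at 0.31, edgeR adjusted p 0.332 for LAC, 0.60, edgeR adjusted p 0.0677 for LB1 and 0.66, edgeR adjusted p 0.0773 for LB2. SUN1 and SYNE4 in LAC at 96 h passed as well with the trend removed (0.44, edgeR adjusted p 0.00734, and 1.85, edgeR adjusted p 0.0244), from 0.42 ± 0.15 (edgeR adjusted p 0.0821) and 1.62 ± 0.56 (edgeR adjusted p 0.0611).

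**Figure D4:**
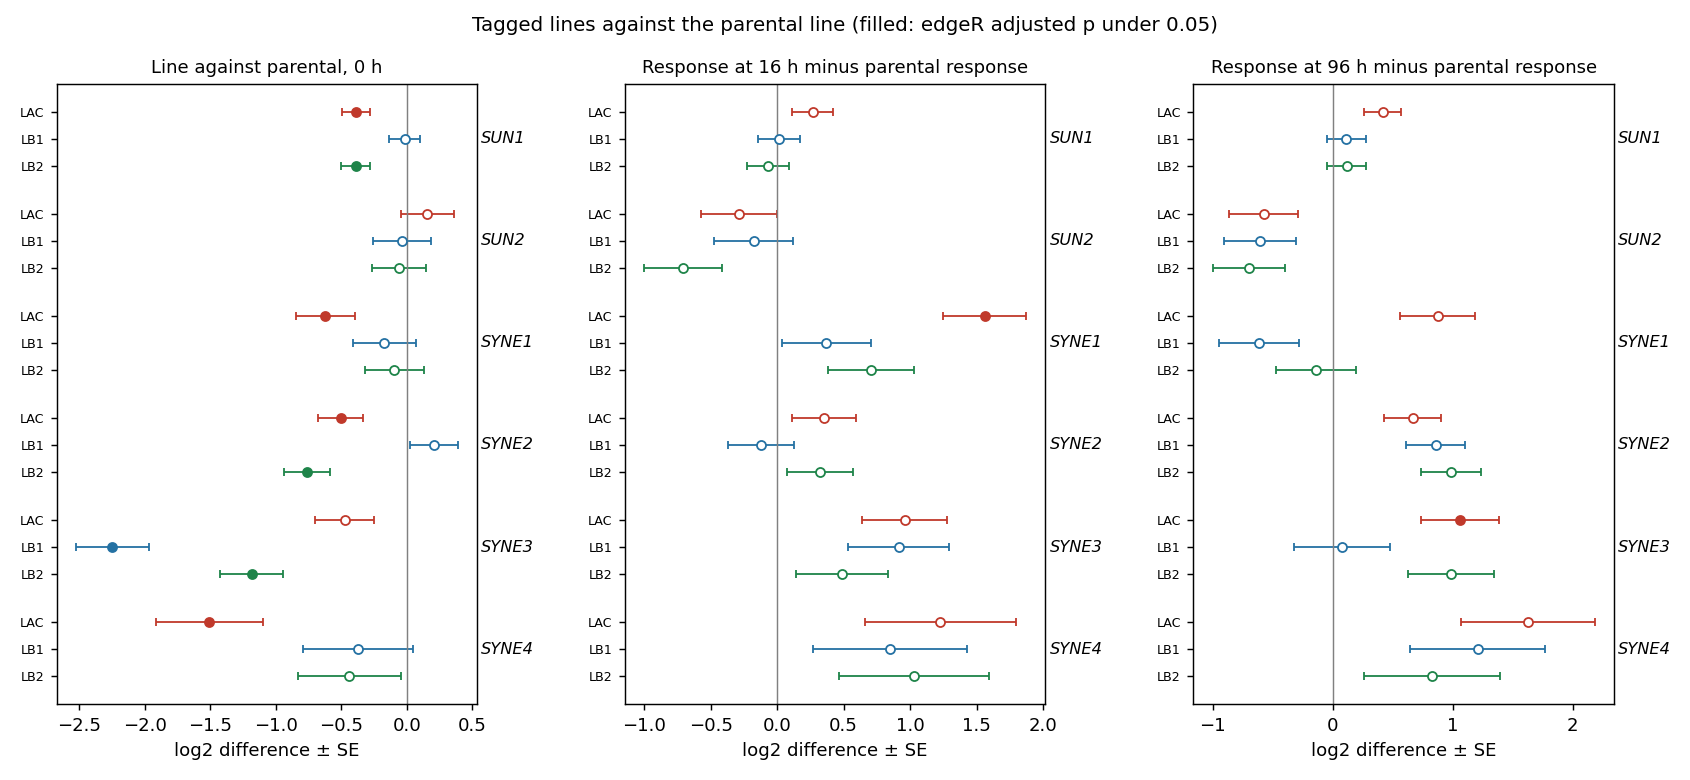
Log2 difference with standard error of each tagged line from the parental line at 0 h (left), and of its change at 16 h (middle) and 96 h (right) of auxin from the parental change; filled points have an edgeR adjusted p under 0.05. The largest difference at 0 h is SYNE3 in LB1 (-2.25), and the filled points in the other panels are SYNE1 (1.56) and SYNE3 (1.06) in LAC.

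Other genes of the pathway came from 3 lists. Of 5 tissue-restricted SUN and KASH genes, only SPAG4 had enough counts to be tested. SUN5 had 0 counts in all libraries, KASH5 had 5, IRAG2 had 26 and SUN3 had 106 over all 46. SPAG4 group means lay between 1.34 and 4.31 CPM, and it was called in 0 of 17 comparisons by edgeR, with 4 at an unadjusted p under 0.05 and 1 call each by DESeq2 and voom. In LB1 at 96 h its change was called with the trend removed, at 1.38 (edgeR adjusted p 0.0156).

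Of 7 envelope proteins that bind or act on SUN proteins and nesprins, 2 rose in the parental line at both times: TMEM201, also called SAMP1, a partner of SUN1 and lamin A, and TMEM43, also called LUMA, a partner of emerin. TMEM201 went from 57.7 ± 6.41 CPM to 94.6 ± 6.81 by 16 h and 110.4 ± 16.6 by 96 h (SD, n = 4 in each group), changes of 0.71 (edgeR adjusted p 0.0130) and 0.94 (edgeR adjusted p 0.00103). TMEM43 changed by 0.48 (edgeR adjusted p 0.0279) and 0.59 (edgeR adjusted p 0.00654). These rose in the same libraries in which SYNE1 and SYNE3 fell. TMEM201 rose in LB1 at 16 h too, by 0.82 (edgeR adjusted p 0.0329). At 96 h the torsin cofactor TOR1AIP2 (LULL1) fell, with changes of -0.59 (edgeR adjusted p 0.000366) in LAC and -0.55 (edgeR adjusted p 0.00439) in LB1, and emerin (EMD) fell in LAC, with a change of -0.38 (edgeR adjusted p 0.0423). In total 2 of 7 were called in the parental line at each time (against 9.01% and 7.78% of all genes), 2 of 7 in LAC at 96 h (15.4%), and 1 of 7 in LB1 at 16 h (1.5%) and at 96 h (3.17%). For LAC at 16 h it was 0 of 7 by edgeR (2 at an unadjusted p under 0.05, 1 each by DESeq2 and voom), for LB2 at 16 h 0 of 7 (1 unadjusted, 0 by DESeq2, 1 by voom) and for LB2 at 96 h 0 of 7 (1 unadjusted, 1 by DESeq2, 2 by voom). With the trend removed 2 of 7 were called in LB2 at 96 h (against 7.75% of all genes), TMEM201 at 0.35 (edgeR adjusted p 0.0344) and TOR1AIP2 at -0.65 (edgeR adjusted p 0.00247). The median change of these 7 was 0.33 and 0.21 in the parental line at 16 and 96 h, beside -0.04 and -0.03 over all genes. For LAC at 96 h removing the trend left the emerin change at -0.08 (edgeR adjusted p 0.775) and made that of TOR1AIP2 larger, at -0.92 (edgeR adjusted p 1.33e-06). At 0 h LAC had 3 of 7 higher than the parental line (against 15.8% of all genes), TMEM201 by 1.24 (edgeR adjusted p 8.16e-06), EMD by 0.49 (edgeR adjusted p 0.00921), or 0.31 (edgeR adjusted p 0.0886) with the trend removed, and TOR1AIP1 (LAP1) by 0.38 (edgeR adjusted p 0.0390), while LB2 had 1 of 7 (8.21% of all genes), TMEM201, higher by 0.73 (edgeR adjusted p 0.0106). LB1 at 0 h had 0 of 7 by edgeR, DESeq2 or voom, and 0 at an unadjusted p under 0.05. In LAC at 96 h 2 of 7 changes differed from the parental ones (against 7.4% of all genes), TMEM201 by -1.20 (edgeR adjusted p 0.00481) and EMD by -0.59 (edgeR adjusted p 0.0471). Both differences were smaller with the trend removed, at -0.69 (edgeR adjusted p 0.00150) and -0.29 (edgeR adjusted p 0.339). In LB1 at 96 h 1 of 7 changes differed from the parental ones (1.04% of all genes), that of TMEM43 by -0.81 (edgeR adjusted p 0.0453). TMEM43 is named there outside the rule for named genes, after its value was seen. For LAC and LB1 at 16 h and for LB2 at both times edgeR called 0 of 7 (at most 0.368% of all genes). Of these, DESeq2 and voom each called 2 in LAC and 0 elsewhere. 

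Of 11 cytoskeletal partners of nesprins, 5 fell in LAC at 96 h, in the same comparison as SYNE3 and SUN2, where 15.4% of all genes were called and 8.64% were lower. Plectin (PLEC), the partner of nesprin-3, changed by -1.54 (edgeR adjusted p 0.000129), fascin (FSCN1), an actin-bundling partner of nesprin-2, by -1.38 (edgeR adjusted p 1.10e-05), and kinesin light chain KLC2 by -0.99 (edgeR adjusted p 1.17e-05). The dynein heavy chain DYNC1H1 changed by -0.49 (edgeR adjusted p 0.0369) and the spectraplakin MACF1 by -0.39 (edgeR adjusted p 0.0346). Changes in this comparison ran with GC content across genes (rho -0.66), and with the trend removed those of PLEC, FSCN1 and KLC2 were smaller, at -0.92 (edgeR adjusted p 5.00e-08), -0.83 (edgeR adjusted p 2.86e-09) and -0.60 (edgeR adjusted p 1.17e-06), and that of MACF1 larger, at -0.60 (edgeR adjusted p 0.000106). The median change of the 11 was -0.35 there, beside 0.03 over all genes. FSCN1 fell at 96 h in the other tagged lines as well, with changes of -0.95 (edgeR adjusted p 0.0120) in LB1 and -1.07 (edgeR adjusted p 0.00348) in LB2, and KLC2 fell in LB1, with a change of -0.66 (edgeR adjusted p 0.0191). With the trend removed the same 5 genes as in LAC were called lower in LB1 at 96 h, against 7.35% of all genes. PLEC was then at -0.65 (edgeR adjusted p 0.000158), DYNC1H1 at -0.67 (edgeR adjusted p 0.000547) and MACF1 at -0.51 (edgeR adjusted p 0.00377). In LB2 at 96 h that refit called FSCN1 alone, against 7.75%. In the parental line at 96 h 2 of 11 fell (against 7.78% of all genes), KLC1 with a change of -0.41 (edgeR adjusted p 0.0388) and MACF1 with -0.40 (edgeR adjusted p 0.0439), the latter at -0.03 (edgeR adjusted p 0.919) with the trend removed. At 16 h 1 of 11, the dynein adaptor BICD2, rose in the parental line (against 9.01% of all genes) by 0.42 (edgeR adjusted p 0.0488), while in the tagged lines 0 of 11 were called at 16 h by edgeR. At an unadjusted p under 0.05 there were 2 in LAC and 3 each in LB1 and LB2, DESeq2 called 2, 1 and 1, and voom called 2, 1 and 3. At 0 h LAC had FSCN1 higher by 1.12 (edgeR adjusted p 0.000239), or 0.73 with the trend removed, KLC2 by 0.86 (edgeR adjusted p 0.000125) and BICD2 by 0.41 (edgeR adjusted p 0.0343). LB2 had FSCN1 higher by 0.76 (edgeR adjusted p 0.0177) and DYNC1H1, AKAP9 and MACF1 lower, at -0.66 (edgeR adjusted p 0.00630), -0.57 (edgeR adjusted p 0.00601) and -0.53 (edgeR adjusted p 0.00625). With the trend removed these 3 were at -0.40 (edgeR adjusted p 0.0294), -0.38 (edgeR adjusted p 0.0663) and -0.23 (edgeR adjusted p 0.188). The 3 calls in LAC and 4 in LB2 stand beside 15.8% and 8.21% of all genes. The LAC changes of PLEC, FSCN1 and KLC2 at 96 h differed from the parental ones by -1.48 (edgeR adjusted p 0.0159), -1.20 (edgeR adjusted p 0.0118) and -1.03 (edgeR adjusted p 0.00370). These differences too were smaller with the trend removed, at -0.81 (edgeR adjusted p 0.00105), -0.59 (edgeR adjusted p 0.00305) and -0.57 (edgeR adjusted p 0.00281). They were 3 of 11, where 7.4% of all genes were called. For LAC at 16 h and for LB1 and LB2 at both times, edgeR, DESeq2 and voom called 0 of 11 (at most 1.04% of all genes by edgeR). With the trend removed 3 of 11 were called for LB1 at 96 h (4.19% of all genes) and 1 of 11 for LB2 at 96 h (1.77%). Of the 36 calls of envelope and cytoskeletal partners, 28 held with the trend removed and 13 in every alternative, and none changed sign in one. The 8 lost with the trend were the 3 of EMD in LAC, both of BICD2, AKAP9 at 0 h, and MACF1 in the parental line and in LB2. In turn 10 tests of envelope and 12 of cytoskeletal partners were called only with the trend removed.

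Genes whose level ran most like a member were found by Pearson r over the 12 group means of log2 CPM, among 10418 protein-coding genes with a mean of at least 5 CPM. For SYNE3 they were MFGE8 (r 0.96), CCDC71L (0.92) and SOX13 (0.91). SYNE1 was nearest to NPC2 (r 0.90), CMKLR2 (0.89) and CHAC1 (0.89), and SYNE2 to PHKA2 (r 0.95), INTS6L (0.95) and ARGLU1 (0.94). SUN1 was nearest to ATP7B (r 0.96), CHMP1B (0.94) and TMEM98 (0.94), and SUN2 to IL17RC (r 0.95), MYORG (0.94) and POLD1 (0.94). SYNE4, measured on few counts, reached only r 0.89 with CMC1, 0.88 with ECHDC2 and 0.87 with ANKHD1. None of the 18 is another member, and an r chosen as the highest of so many over 12 means that share lines, times and depth carries no test.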

How the data were processed

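RNA was sequenced from 46 DLD-1 libraries, as paired-end reads of a stranded, ribosomal-RNA-depleted total RNA kit per the labels. The authors deposited counts per gene made with featureCounts 1.6.4 from an nf-core/rnaseq 1.4.2 environment, per the file headers. The submitters' processing notes name STAR 2.7.10a and GRCh38, and the strand setting is not given in the sources used here. Of 62756 usable genes 67.4% had a symbol, and 1 gene broken over 3 lines was left out. Groups came from the sample labels.

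The counts were fitted with edgeR 4.0.16 (R 4.3.3) in 1 quasi-likelihood model of 46 libraries and 12 groups, with TMM scaling and filterByExpr. In each comparison 21484 genes passed that filter, all 6 members among them, and p-values are two-sided and Benjamini-Hochberg adjusted over them. Changes are log2 with standard errors, and 95% intervals use the normal quantile. Alternatives were DESeq2 1.42.0, RLE scaling, scaling by library size, no filter, limma 3.58.1 voom with sample weights, the compared groups alone, a replicate block, a GC and length trend removed per library, that trend with the block, no libraries under 5000000 counts, and each replicate left out. The fits were run on simulated counts with known changes, as a check of the procedure. Those counts held no GC trend shared by a group, so they do not test the calls given here. Replicates of a group always differed by more than sampling noise. Replicate numbers did not pair the samples (closing section). Intervals and the limit on a count of 0 leave out variation other than that of the fit or of counting.

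The members and lists were chosen with earlier results of these data known. Besides the members, the rule named the 3 protein-coding genes with the highest Pearson r to each over 12 group means (at least 5 CPM, prior count 2), and list genes called the same way in 2 or more comparisons of a kind or beside a called member. The lists held 5 other SUN and KASH genes, 7 envelope partners, 11 cytoskeletal partners, 7 epithelial markers and 7 markers of other cell types. Promoters are from RefSeq (GRCh38.p14), which matched 5 members with 13 windows. SUN1 had none.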

Additional observations from a re-analysis of the deposited data

Results flagged for a closer look

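Of 60 groups of 4 libraries tested over the 6 genes, 5 held 1 library far from the other 3, where chance flags about 1 in 20. SUN2 stood at 91.7 CPM (580 counts) in replicate 1 of LB1 at 16 h, with the others from 55.6 to 60.0. In replicate 1 of LB2 at 0 h SUN2 stood at 126 CPM (227 counts), with the others from 46.0 to 58.0, and the SUN2 call at 96 h in LB2 ended without that library. SYNE1 stood at 12.7 CPM (50 counts) in replicate 4 of LB2 at 0 h, with the others from 6.74 to 7.21, and here too the call at 96 h ended without it. SYNE3 stood at 7.19 CPM (88 counts) in replicate 1 of the parental line at 96 h, with the others from 3.92 to 4.41, and the parental calls held without it. SYNE4 stood low, at 0.880 CPM (12 counts), in replicate 4 of LAC at 96 h, with the others from 1.79 to 1.96.

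In 2 cases a tagged line's change differed from the parental one by an interaction test. SYNE1 in LAC at 16 h differed by 1.56, and SYNE3 in LAC at 96 h by 1.06 (log2, edgeR adjusted p 0.0136 and 0.0368).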

How the results depend on the processing

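Within lines 13 calls were made, all lower. Without the low-count filter there were 8, of which 7 were among the 13, and voom made 22, all 13 among them. Leaving out 1 library gave 11 to 16. At 0 h 8 calls were made, against 4 without the filter, 5 with the GC and length trend removed (5 also with the block added), 5 without libraries under 5000000 counts and 3 in the fit of the compared groups alone, each of them among the 8. Leaving out 1 library gave 4 (without replicate 2 of the parental line at 0 h) to 8. In the differences from the parental change 2 calls were made, against 5 with RLE scaling, 8 with library size only, 4 with the trend removed (4 with the block), 4 in the compared groups alone, 7 by voom and 8 by DESeq2, each time with both of the 2 among them. Leaving out 1 library gave 0 (without replicate 2 of the parental line at 0 h) to 5 (without replicate 1 of LB1 at 0 h). The causes were not tested, beyond fewer libraries or other genes entering a fit. Every call lay in the direction given in the report under each of these settings except 1 of the 22 by voom, SYNE4 in LAC at 96 h, which was higher.

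Of the 23 called results 7 held in every alternative: SYNE1 and SYNE3 in the parental line at 16 h, SYNE3 there at 96 h, SYNE1 and SYNE3 in LB1 at 96 h, and SYNE3 at 0 h in LB1 and in LB2. Without the trend 18 of the 23 held and 8 others were called. Library size only moved the median of all genes by between -0.18 and 0.21 (log2), and by over 0.1 in 7 of 17 comparisons; RLE did so in 1. DESeq2 gave an adjusted p for 47 of 48 tests within lines.

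A block on the replicate number gave 14, 8 and 3 calls. The numbers are not stated to pair samples: of 40 same-numbered pairs 18 had deviations correlated over 0.1 (range -0.57 to 0.69), every pair did so in 1 of 11 comparisons, and 11 of 40 correlated best with their own number. Depth limits SYNE4 most, with as few as 1 count in a library.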
